A study of Mus musculus with 8 samples.

Results

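Liver sinusoidal endothelial cells and the VEGF system that feeds them were read through 10 genes, chosen by name: the sinusoidal markers Stab1, Stab2, Lyve1, Clec4g and Oit3, the capillary marker Cd34, the growth factor Vegfa, its receptors Kdr and Flt1, and the angiopoietin receptor Tek. All 10 were found among the 19938 genes that had a probe set tied to exactly 1 gene symbol, each taken through its brightest probe set over the 8 arrays. Livers came from 4 mice carrying a constitutively active IKK2 transgene (called IKK2ca here) and from 4 wild type controls, every animal 4 weeks of age. Both groups shared a background of C57BL/6 mixed with NMRI, crossed back to C57BL/6 no fewer than 4 times. The transgene was under the LAP promoter, which is active in hepatocytes rather than in endothelium. Whole liver RNA from each animal was hybridised to 1 Affymetrix array, and the values are log2 expression readings.

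Blood from the portal vein and hepatic artery passes through sinusoids, whose endothelium has open pores, lacks an organised basement membrane and takes up waste molecules through scavenger receptors. Hepatocytes release VEGF-A, which acts on neighbouring endothelial cells through Kdr and helps to keep them in this open state. When sinusoids take on the features of ordinary capillaries, a change called capillarisation, they gain CD34 and a basement membrane. IKK2 activates the transcription factor NF-kB.

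Of the 10 genes, 2 were higher and 1 was lower in IKK2ca livers. Stab1 and Cd34 rose 1.74-fold and 1.53-fold, and Vegfa fell 1.43-fold. Stab2, Lyve1, Clec4g, Oit3, Kdr, Flt1 and Tek did not pass the test. A gene passed at an adjusted p under 0.05 in limma's moderated test, adjusted by Benjamini and Hochberg over all 21789 probe sets with 1 symbol. Of all 19938 genes 6.34% passed, 4.67% as higher and 1.67% as lower, and 33.6% had an unadjusted p under 0.05, as 3 of the 10 did. The groups of 4 did not overlap for 3 of the 10 genes and for 22.4% of all genes, so in this respect the set was close to the background. The median log2 fold change was -0.01 over the 10 genes and -0.07 over all genes.

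**Figure D1:**
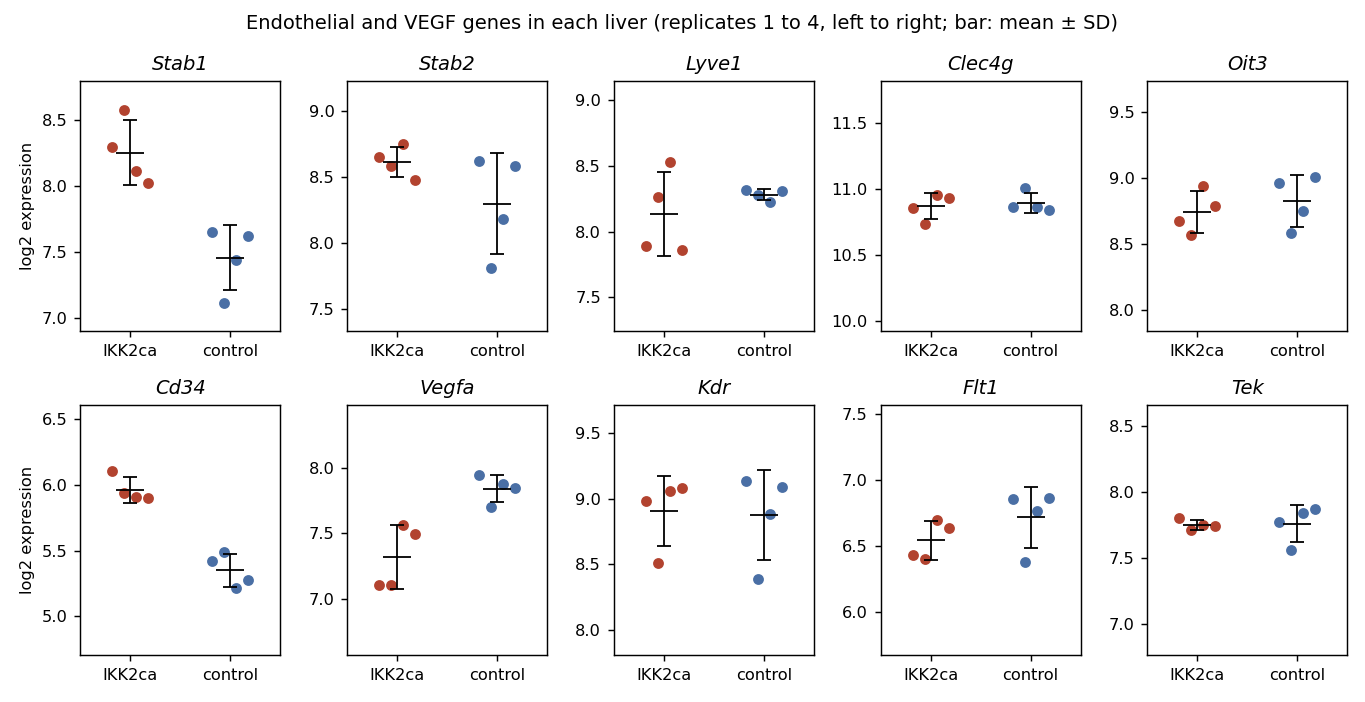
Each panel plots the log2 expression of 1 gene in the 4 IKK2ca livers (left, red) and the 4 control livers (right, blue), with the mean and SD as bars. All panels span the same number of log2 units, and the groups are apart for Stab1, Cd34 and Vegfa and overlap for the other 7 genes.

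The labelled tissue was checked through its endothelial markers. Clec4g read 10.73 to 10.96 in IKK2ca livers and 10.84 to 11.00 in controls, and all 10 genes read above the array medians of 4.88 to 5.08. Ikbkb, the gene of IKK2, read 8.38 to 9.09 in IKK2ca livers and 7.44 to 7.85 in controls. Pairs of arrays of a group correlated at 0.976 to 0.996 for IKK2ca and at 0.991 to 0.996 for controls over all probe sets with 1 symbol, and no pair was identical. In whole tissue, fewer cells of a type and less RNA per cell cannot be told apart.

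The starts of the 3 genes that passed, and of the receptors Kdr and Flt1, are shown because NF-kB is the factor that the transgene switches on. Each window holds the 250 bases before the annotated start in RefSeq, build GRCm38.p6, written 5′ to 3′ on the strand of the gene. Capitals mark matches, on either strand, to the NF-kB consensus, the hypoxia response core ACGTG, the GATA motif AGATAA or the ETS core CCGGAA.
Vegfa, chr17:46032378-46032627, minus strand: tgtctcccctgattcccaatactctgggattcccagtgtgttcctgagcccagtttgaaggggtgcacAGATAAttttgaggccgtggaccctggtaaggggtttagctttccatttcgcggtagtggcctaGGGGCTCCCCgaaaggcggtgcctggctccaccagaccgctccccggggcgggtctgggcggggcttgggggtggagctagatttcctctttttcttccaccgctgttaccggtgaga
Kdr, chr5:75978456-75978705, minus strand: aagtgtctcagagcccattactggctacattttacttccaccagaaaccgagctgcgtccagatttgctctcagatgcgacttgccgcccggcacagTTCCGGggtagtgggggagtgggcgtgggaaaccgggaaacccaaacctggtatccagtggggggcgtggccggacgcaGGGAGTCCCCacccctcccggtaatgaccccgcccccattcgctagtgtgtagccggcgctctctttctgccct
Flt1, chr5:147726012-147726261, minus strand: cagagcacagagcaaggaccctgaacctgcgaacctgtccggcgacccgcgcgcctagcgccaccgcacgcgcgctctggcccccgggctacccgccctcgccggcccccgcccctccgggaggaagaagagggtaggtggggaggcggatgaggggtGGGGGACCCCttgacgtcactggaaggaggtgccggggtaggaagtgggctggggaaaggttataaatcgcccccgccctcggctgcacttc
Stab1, chr14:31168642-31168891, minus strand: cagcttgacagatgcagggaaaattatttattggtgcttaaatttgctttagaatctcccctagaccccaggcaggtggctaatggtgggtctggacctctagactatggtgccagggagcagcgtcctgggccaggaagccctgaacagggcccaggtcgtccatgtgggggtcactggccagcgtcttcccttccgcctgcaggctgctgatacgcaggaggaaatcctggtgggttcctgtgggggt
Cd34, chr1:194938571-194938820, plus strand: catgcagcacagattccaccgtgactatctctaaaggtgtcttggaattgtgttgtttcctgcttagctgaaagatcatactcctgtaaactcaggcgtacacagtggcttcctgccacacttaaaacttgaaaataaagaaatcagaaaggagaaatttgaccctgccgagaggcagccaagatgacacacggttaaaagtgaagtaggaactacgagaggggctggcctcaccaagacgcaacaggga

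RefSeq windows were at hand for 8 of the 10 genes, without Lyve1 and Oit3. An NF-kB match lay in the windows of Vegfa (GGGGCTCCCC, first base 118 bases before the start), Kdr (GGGAGTCCCC, 74 bases before) and Flt1 (GGGGGACCCC, 92 bases before). All 3 read as matches on both strands. Of 32851 windows in the reference, 7.25% held such a match. The window of Vegfa also held AGATAA, found in 9.99% of windows, and that of Kdr the ETS core on the opposite strand, found in 12% of windows. A further annotated start of Vegfa had 1 match to the hypoxia core, which 16.6% of windows held. None of the 4 motifs was found in the windows of Stab1, Stab2, Clec4g, Cd34 or Tek, which says only that these letters are not within those 250 bases. The genes with an NF-kB match were 1 that fell and 2 that did not pass.

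Of the sinusoidal markers in the gene set, only Stab1, which codes for the scavenger receptor stabilin-1, passed. Of 16 measured genes in a wider list of such markers, given below, Cd36 and Clec1b alone passed, both higher. Stab1 read 8.29, 8.58, 8.12 and 8.03 in IKK2ca replicates 1 to 4, against 7.65, 7.12, 7.44 and 7.62 in control replicates 1 to 4. Every IKK2ca liver was above every control. The log2 fold change was 0.80 (SE 0.15, 95% confidence interval 0.46 to 1.14, limma adjusted p = 0.0219, n = 4 each). Leaving out IKK2ca replicate 1 ended the limma call (adjusted p = 0.0798), and so did leaving out control replicate 2 (0.0660), 3 (0.0701) or 4 (0.0520). It was kept in the other 4 such fits. Tested with limma's treat for a change beyond 1.2-fold, Stab1 did not pass (adjusted p = 0.126).

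Stab2 codes for the related receptor stabilin-2, which clears hyaluronan. It read 8.65, 8.59, 8.75 and 8.48 in IKK2ca livers, against 8.62, 7.81, 8.18 and 8.58 in controls. Control replicates 2 and 3 were below all IKK2ca livers and the other 2 controls lay among them. The log2 fold change of 0.32 (95% confidence interval -0.06 to 0.70, limma adjusted p = 0.212) did not pass. It was 0.15 without control replicate 2, 0.15 with array weights and 0.19 after quantile normalization. Whether the paralogs changed by unequal amounts was tested on the difference of their log2 values within each array. Stab1 minus Stab2 was -0.36 ± 0.26 in IKK2ca livers and -0.84 ± 0.15 in controls (SD, n = 4 each), a change of 0.48. In a two-sided exact permutation test p was 0.0286, the smallest that 4 against 4 arrays can give, and 0.0857 after adjustment over the 3 gene pairs compared. A pair at that smallest p cannot pass on its own after adjustment over 3 pairs, so this test could not decide whether the change was unequal. The 2 groups did not overlap in this difference, which only restates that smallest p.

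Macrophages can also make stabilin-1, and many of their markers were higher in IKK2ca livers as well. All 14 Kupffer cell genes on the list were measured, and 8 rose, where 4.67% of all genes did. Adgre1, Csf1r, C1qb and C1qc led at log2 fold changes of 1.74, 1.64, 1.66 and 1.61. The list's mean level was 8.55 to 9.89 in IKK2ca livers and 7.67 to 8.08 in controls. IKK2ca replicate 2 held the highest value of both Stab1 (8.58) and this list (9.89), and replicate 4 the lowest of its group in both. Replicate 3 was above replicate 1 for the list (9.01 and 8.87) and below it for Stab1 (8.12 and 8.29). Control replicate 1 was the highest control in both. The lowest control was replicate 2 for Stab1 (7.12) and replicate 3 for the list (7.67). Of 12 measured monocyte and recruited macrophage genes 10 rose, with mean levels of 6.31 to 7.49 in IKK2ca livers and 4.96 to 5.09 in controls. Ccr2, Lyz2, Itgax and Cx3cr1 rose the most, by 3.72, 2.84, 2.46 and 2.32. Their part in the rise of Stab1 was not tested. C1qc lost its limma call without control replicate 2 (adjusted p = 0.0520) or 3 (0.0514), and the other 7 genes named here kept theirs with any 1 array left out.

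Lyve1, a hyaluronan receptor shared by sinusoidal and lymphatic endothelium, read 7.89, 8.27, 8.53 and 7.86 in IKK2ca livers. In controls it read 8.32, 8.28, 8.22 and 8.31, a far narrower band. IKK2ca replicates 1 and 4 lay below all controls and replicate 3 above them, so the SD was 0.32 in IKK2ca livers and 0.04 in controls. The log2 fold change was -0.15 (95% confidence interval -0.47 to 0.18, limma adjusted p = 0.475).

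Clec4g codes for the sinusoidal lectin LSECtin. It read 10.86, 10.73, 10.96 and 10.93 in IKK2ca livers, against 10.86, 11.00, 10.86 and 10.84 in controls. The groups overlapped, and the interval of the log2 fold change ran from -0.21 to 0.17 around -0.02 (limma adjusted p = 0.863). A second probe set of Clec4g averaged 3.62 over the arrays, under every array median, and its difference of -0.29 did not pass either (adjusted p = 0.135). Oit3, a secreted protein of the liver found in sinusoidal endothelium, read 8.67, 8.56, 8.94 and 8.78 in IKK2ca livers. Its control values were 8.96, 8.58, 8.75 and 9.01, which overlap those of the IKK2ca livers. The difference was -0.08 (95% confidence interval -0.35 to 0.19, limma adjusted p = 0.626).

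Cd34, a sialomucin of capillary endothelium and of blood cell progenitors, had the smallest p of the 10 genes. It read 6.10, 5.94, 5.91 and 5.90 in IKK2ca replicates 1 to 4, against 5.42, 5.49, 5.21 and 5.28 in the controls. The lowest IKK2ca liver lay above the highest control. The log2 fold change was 0.61 (SE 0.09, 95% confidence interval 0.40 to 0.82, limma adjusted p = 0.00998). The call was kept with any 1 array left out (adjusted p 0.00645 to 0.0429) and was lost in the treat test (0.0991). These readings are near the array medians, and no background was measured. Against Stab2 within each array the change was 0.29, with p = 0.229 both before and after adjustment in the exact permutation test, and the groups overlapped. This change was 0.17 without control replicate 4 and 0.50 without control replicate 2.

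Cells other than endothelium can carry CD34. Of 10 measured genes of blood cell progenitors and platelets, 1 rose, the platelet factor Pf4 at 0.98 (limma adjusted p = 0.0159). The mean level of that list was 5.61 to 5.81 in IKK2ca livers and 5.43 to 5.65 in controls. Pf4 lost its call without IKK2ca replicate 1 or control replicates 1, 3 or 4 (limma adjusted p up to 0.0644). Their part in the rise of Cd34 was not tested.

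Vegfa, the ligand, was lower in IKK2ca livers. It read 7.11, 7.11, 7.57 and 7.50 in IKK2ca replicates 1 to 4, against 7.95, 7.70, 7.88 and 7.84 in the controls. The highest IKK2ca liver lay below the lowest control, by a narrow margin. Vegfa had a log2 fold change of -0.52 (SE 0.12, 95% confidence interval -0.80 to -0.24, limma adjusted p = 0.0431). IKK2ca replicates 1 and 2, the lowest for Vegfa, read 8.995 and 9.09 for Ikbkb, and replicates 3 and 4 read 8.38 for both. Among controls, replicate 2 was the lowest for Vegfa (7.70) and also for Ikbkb (7.44). A relation between these genes was not tested.

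The fall of Vegfa was the least stable of the 3 calls. Leaving out IKK2ca replicate 1 (limma adjusted p = 0.124) or 2 (0.0613) ended it, as did leaving out control replicate 1 (0.0996), 2 (0.0869), 3 (0.110) or 4 (0.0836). Centring each array on its median (0.0611) and testing all deposited probe sets (0.0719) had the same effect, as had the treat test (0.471). Its log2 fold change stayed between -0.66 and -0.44 in all 18 alternatives. Of 10 measured hepatocyte markers none passed limma's test and 4 had an unadjusted p under 0.05. The member with the smallest p was Tdo2, an enzyme that breaks down tryptophan, at -0.49 (adjusted p = 0.0875). The hepatocyte list averaged 11.85 to 12.19 in IKK2ca livers and 12.17 to 12.31 in controls. Whether this moved Vegfa was not tested.

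The receptors gave no call. Kdr, the main signalling receptor for VEGF-A, read 8.98, 8.51, 9.05 and 9.08 in IKK2ca livers, against 9.14, 8.39, 8.88 and 9.09 in controls. Replicate 2 was the lowest of its group in both. The difference was 0.03 (95% confidence interval -0.38 to 0.44, limma adjusted p = 0.910). Flt1, a high-affinity receptor that holds VEGF-A back from Kdr, read 6.43, 6.40, 6.70 and 6.64 in IKK2ca livers, against 6.86, 6.38, 6.76 and 6.86 in controls. Only control replicate 2 kept the groups from lying apart, and the difference was -0.17 (95% confidence interval -0.46 to 0.11, limma adjusted p = 0.337). Flt1 minus Kdr within each array changed by -0.20, with an exact permutation p = 0.143 and 0.214 after adjustment over the 3 pairs.

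Tek, the receptor for angiopoietins that steadies vessels, read 7.80, 7.71, 7.75 and 7.74 in IKK2ca livers. The controls read 7.77, 7.56, 7.84 and 7.87. IKK2ca livers lay within the range of the controls, with a log2 fold change of -0.01 (95% confidence interval -0.21 to 0.19, limma adjusted p = 0.951). For Clec4g and Tek the intervals leave room for changes of at most 0.21 on the log2 scale, and for Stab2, Lyve1, Kdr and Flt1 they reach 0.44 or more in one direction.

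**Figure D2:**
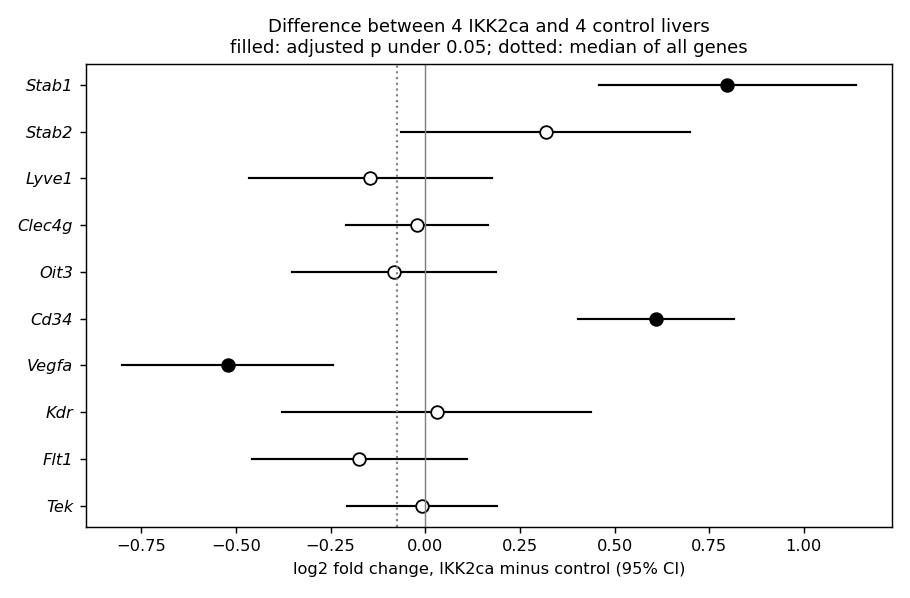
Log2 fold changes of the 10 genes, IKK2ca minus control, with 95% confidence intervals from limma as horizontal lines; filled points passed at an adjusted p under 0.05. Stab1 at 0.80 and Cd34 at 0.61 lie right of 0, Vegfa at -0.52 lies left of it, and the intervals of the other 7 genes cross 0; the dotted line is the median of all genes at -0.07.

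The spread within groups was not even across livers. Control replicate 2 was the lowest control for 7 of the 10 genes, with a median deviation from the control mean of -0.22 over them, against 0.01 over all genes. Stab2 and Kdr both lay 0.49 below their control means there, and Stab1 and Flt1 both 0.34 below. It was the lowest control for 27.4% of all genes. Its 23 pan-endothelial genes deviated by a median of -0.04, and it was the lowest control for 7 of those 23, and control replicates 3 and 4 were each the lowest for 7. IKK2ca replicate 2 was the lowest of its group for 5 of the 10 genes, namely Kdr, Flt1, Tek, Oit3 and Clec4g, and for 38.6% of all genes. IKK2ca replicate 3 was the highest of its group for 6 of the 10. Without control replicate 2, 1 of the 10 genes remained past the threshold, Cd34 (limma adjusted p = 0.0250).

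**Figure D3:**
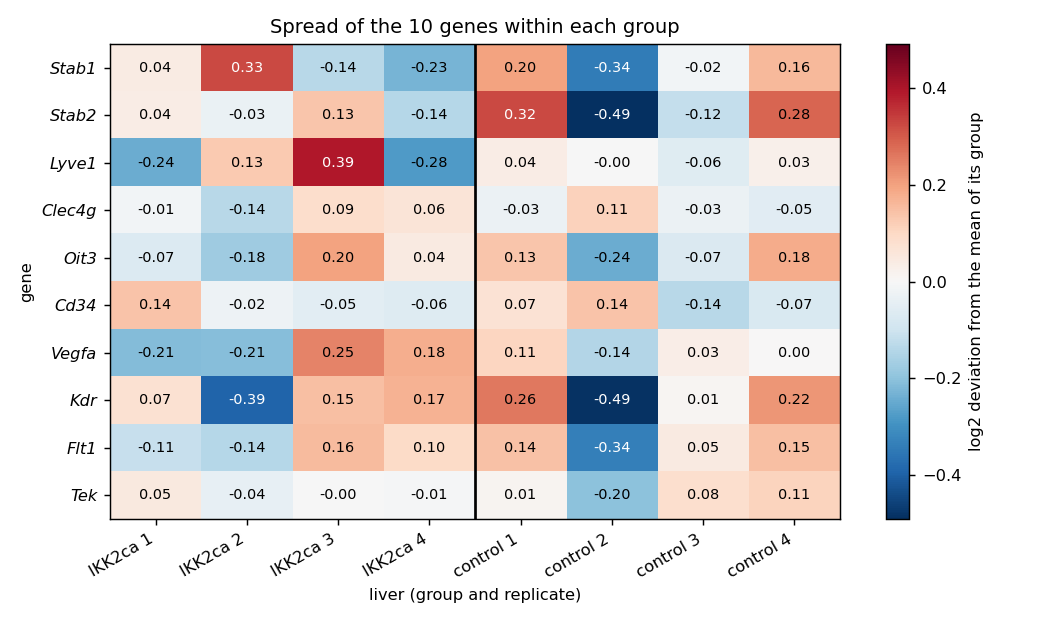
Colour and numbers give the log2 deviation of each gene (rows) in each liver (columns) from the mean of its own group, IKK2ca left and control right of the line. Control replicate 2 is low for Stab1, Stab2, Oit3, Vegfa, Kdr, Flt1 and Tek, at -0.14 to -0.49.

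Further sinusoidal markers were followed through a list of 18, of which 16 were measured. Of these 2 rose and 0 fell, beside 4.67% of all genes higher. The scavenger receptor Cd36, which binds lipids, rose by 0.88 (limma adjusted p = 0.0385), and its groups overlapped. The lectin Clec1b, a platelet receptor also found on Kupffer cells, rose by 0.87 (limma adjusted p = 0.0403). The list ranged from -1.40 to 0.88 with a median of 0.23, and 11 of its genes were positive and 5 negative. Mgll at -1.40 (limma adjusted p = 0.0564) and Cldn5 at -0.42 (0.0581), chosen after their values were seen, had groups apart, with IKK2ca lower. Cd36 lost its limma call without IKK2ca replicate 1 or control replicates 1, 2 or 4 (adjusted p up to 0.111), and Clec1b without IKK2ca replicate 1 or any one control (up to 0.110). Neither passed with all deposited probe sets (0.0673 for Cd36, 0.0698 for Clec1b), Cd36 did not after quantile normalization (0.0508) and Clec1b did not after centring on array medians (0.0551). In the treat test they gave adjusted p-values of 0.191 and 0.209.

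Of 16 measured genes of continuous and capillary endothelium, 3 rose and 0 fell, beside 4.67% of all genes higher and 1.67% lower. Col4a1 and Col4a2, chains of collagen IV, rose by 0.64 and 0.50 (limma adjusted p = 0.0105 and 0.0288), and the laminin chain Lamb1 rose by 0.57 (0.0185). Col4a1 read 8.15, 8.03, 7.87 and 7.84 in IKK2ca livers, against 7.35, 7.17, 7.36 and 7.43 in controls. Its groups lay apart, as did those of the other 2. Other matrix genes, chosen after their values were seen, did not pass. The laminin chain Lama4 of the same list stood at -0.10 (limma adjusted p = 0.630), and Hspg2 and Col18a1, from the list of vessel growth inhibitors and modulators, stood at 0.03 (0.812) and -0.17 (0.313).

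The list of continuous and capillary endothelium had a median of -0.01, with 8 of its 16 genes positive. Stellate cells make collagen IV and laminin as well. Of 11 measured stellate cell and pericyte genes, 1 rose, the proteoglycan Dcn at 0.55 (limma adjusted p = 0.00941). That list's mean level was 7.26 to 7.54 in IKK2ca livers and 7.33 to 7.44 in controls. Its part in the rises of Col4a1, Col4a2 and Lamb1 was not tested. Col4a1 and Dcn kept their calls with any 1 array left out and lost them in the treat test (limma adjusted p = 0.0909 and 0.127). Lamb1 lost its own without control replicates 1, 2 or 3, and Col4a2 without those or IKK2ca replicate 1 (limma adjusted p up to 0.0575 and 0.09999). Col4a2 did not pass with all deposited probe sets either (0.0511), and the treat test called neither (0.209 for Lamb1, 0.387 for Col4a2).

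Genes shared by all endothelium went both ways. Among 23 of them 2 rose and 1 fell, beside 4.67% of all genes higher and 1.67% lower. Their median of -0.07 was the same as that of all genes. Fli1, an ETS transcription factor of endothelium and blood cells, rose by 0.83 (limma adjusted p = 0.0367). Cd93, a receptor on endothelium and myeloid cells, rose by 0.59 (0.0396), and the endothelial transcription factor Sox7 fell by 0.41 on the log2 scale (0.0487). Each of these 3 calls was lost in at least 5 of the 8 fits with 1 array left out, without IKK2ca replicate 1 or control replicates 1, 2 or 3 in every case (limma adjusted p up to 0.0995, 0.109 and 0.119). With all deposited probe sets none of them passed (0.0637, 0.0673 and 0.0784), and after centring on array medians Cd93 (0.0515) and Sox7 (0.0753) did not. Sox7 was also lost with trend and robust moderation (0.0521).

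Among the endothelial markers, Cdh5 and Pecam1 narrowly missed the threshold as higher, and Sox18 as lower. Cdh5, the cadherin of endothelial junctions, read 8.09, 8.51, 8.09 and 7.91 in IKK2ca livers, against 7.82, 7.37, 7.69 and 7.79 in controls. The groups did not overlap, and its log2 fold change of 0.48 gave a limma adjusted p = 0.0693. Pecam1, an adhesion molecule of endothelium and leukocytes, stood at 0.33 (0.0684). Sox18, chosen after its value was seen, stood at -0.36 (0.0751), with groups apart. Of the 23 genes, 11 were positive and 12 negative. The orphan receptor Tie1 stood at -0.20 (0.189), and the junction molecule Esam, chosen after its value was seen, at -0.12 (0.396). Groups did not overlap for 8 of the 23 genes, beside 22.4% of all genes.

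Around Vegfa, the other VEGF ligands and receptors gave a single call. Of 10 measured, 1 rose, the semaphorin receptor Plxnd1 at 0.45 (limma adjusted p = 0.0462), and that call held in 1 of the 8 fits with 1 array left out, the one without IKK2ca replicate 3 (0.0202). Plxnd1 was also lost with all deposited probe sets (0.0750), after centring (0.0596) or quantile normalization (0.0597), and with array weights (0.0602). The values of the list ran from -0.24 to 0.45, with a median of -0.02. Of 7 angiopoietin and Tie genes, 0 passed limma's test and 1 had an unadjusted p under 0.05. That was Dok2, an adaptor that binds Tek and is also used by leukocytes, at 0.61 (adjusted p = 0.0663). Of 10 endothelial Notch genes, 0 passed and 1 had an unadjusted p under 0.05, the ligand Jag2 at -0.33 (limma adjusted p = 0.119).

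Signalling genes downstream of VEGF receptors gave more calls. They rose in 5 of 25 cases and fell in 0, beside 4.67% of all genes higher and 1.67% lower, with a median of 0.23. Rcan1, a feedback inhibitor of calcineurin that VEGF can induce, read 10.37, 10.67, 8.67 and 9.02 in IKK2ca livers, against 7.41, 7.43, 7.63 and 7.26 in controls. The log2 fold change was 2.25 (SE 0.40, limma adjusted p = 0.0177), with IKK2ca replicates 1 and 2 the highest. The phospholipase Plcg2, the kinase Prkcb and the GTPase Rac2, all abundant in leukocytes, rose by 1.21, 1.23 and 1.16, and the adaptor Nck1 by 1.23. All 5 lost their limma calls without IKK2ca replicate 1 or any one control (adjusted p up to 0.0674 for Rcan1 and 0.135 for the others). With all deposited probe sets Plcg2, Prkcb, Nck1 and Rac2 did not pass (0.0577 to 0.0814), and after centring Prkcb (0.0609), Nck1 (0.0561) and Rac2 (0.0561) did not. Prkcb was lost with trend and robust moderation too (0.0519). The macrophage lists given beside Stab1 were higher in the same livers, and their part in these rises was not tested. Of the 25 genes, 19 were positive and 6 negative. Egr3, Dusp5 and Nr4a1 of this list, chosen after their values were seen, did not pass. They stood at -0.36, -0.29 and 0.22 (limma adjusted p = 0.0712, 0.173 and 0.198).

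Hypoxia raises Vegfa, so genes of that response were counted. Of 20 on the array 1 rose and 1 fell, 5% each way, beside 4.67% of all genes higher and 1.67% lower. The list median was 0.07, with 11 genes positive and 9 negative. Pfkfb3, an enzyme that speeds glycolysis, read 8.04, 9.35, 7.03 and 7.94 in IKK2ca livers, against 5.66, 5.62, 5.25 and 5.41 in controls. Its rise of 2.61 (SE 0.39, limma adjusted p = 0.00941) was kept with any 1 array left out. Pdk1, a kinase that holds back pyruvate oxidation, fell by 0.95 on the log2 scale (limma adjusted p = 0.0482), a call lost without IKK2ca replicate 1 or any one control (up to 0.135), with all deposited probe sets (0.0798), after centring (0.0564) and with array weights (0.0593). Pfkfb3 and Pdk1 thus passed in opposite directions, and the other 18 genes of the list did not pass.

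Among 18 measured inhibitors and modulators of vessel growth, 1 rose (5.56%, beside 4.67% of all genes higher) and the other 17 missed the threshold. The gene that rose was Thbs1, a matrix protein that inhibits angiogenesis, at 1.19 (limma adjusted p = 0.0238). The median of that list was -0.18, and 13 of its 18 genes were negative. Of 13 transcription factors of sinusoidal endothelium 1 rose, Zeb2, which macrophages also use, at 0.84 (0.0133). That is 7.69%, beside the same 4.67% of all genes, and 9 of the 13 were negative. Thbs1 lost its limma call without IKK2ca replicate 1 or any one control (adjusted p up to 0.0769), and Zeb2 without control replicates 2 or 3 (up to 0.0546).

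Sinusoidal endothelium also sends signals to hepatocytes. Of 11 measured genes listed as endothelium-derived factors, not all of them such signals, 2 rose, beside 4.67% of all genes. Of the 11, 6 were negative, among them Bmp6 at -0.43 (limma adjusted p = 0.0604), chosen after its value was seen. Nid1, which links laminin to collagen IV, rose by 1.23 (limma adjusted p = 0.0200), and the growth factor Hgf, which stellate cells make as well, by 0.74 (0.0133). Nid1 lost its call without IKK2ca replicate 1 or control replicates 1, 2 or 3 (limma adjusted p up to 0.0777). Of 15 genes that Wnt ligands sustain in the hepatocytes around central veins 1 rose, the ammonium transporter Rhbg at 0.64 (0.0344). That is 6.67%, beside 4.67% of all genes higher, and 10 of the 15 were negative, with a list median of -0.22. Glul at -0.45 (limma adjusted p = 0.0799) and Notum at -0.67 (0.0662), chosen after their values were seen, had groups apart, with IKK2ca lower. Hgf lost its limma call without IKK2ca replicate 1 or control replicates 2 or 3 (adjusted p up to 0.0584), and Rhbg without IKK2ca replicate 1 or control replicates 1, 2 or 4 (up to 0.109), after quantile normalization (0.0641) or with all deposited probe sets (0.0603).

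Adhesion and activation genes of endothelium had the largest share of calls among the endothelial and vessel lists. Here 5 of 12 rose and 0 fell, beside 4.67% of all genes higher and 1.67% lower, while the list median was 0.09. Vcam1, which binds leukocyte integrins, read 10.24, 11.26, 9.91 and 10.23 in IKK2ca livers, against 8.12, 8.03, 7.95 and 8.10 in controls. Its log2 fold change was 2.36 (SE 0.24, limma adjusted p = 0.00146). Icam1 and Nos2, the inducible nitric oxide synthase, rose by 2.71 and 2.82, Tnfaip2 by 1.98 and the junction protein Jam2 by 0.50. Macrophages and hepatocytes can make several of these transcripts. Vcam1 and Icam1 kept their calls with any 1 array left out, whereas Jam2 and Nos2 lost theirs without IKK2ca replicate 1 or any one control, and Tnfaip2 without IKK2ca replicate 1 or control replicates 2 or 3 (limma adjusted p up to 0.106, 0.0723 and 0.0584). Jam2 did not pass after quantile normalization (0.0612) or with all deposited probe sets (0.0565). Of 40 called genes named here, the treat test kept 14, among them Vcam1, Icam1, Nos2, Tnfaip2, Rcan1 and Pfkfb3, and none of Stab1, Cd34 and Vegfa. Of 7 measured markers of lymphatic endothelium 0 passed limma's test, 0 had an unadjusted p under 0.05, and the smallest p was that of Foxc2 (-0.20, adjusted p = 0.157).

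**Figure D4:**
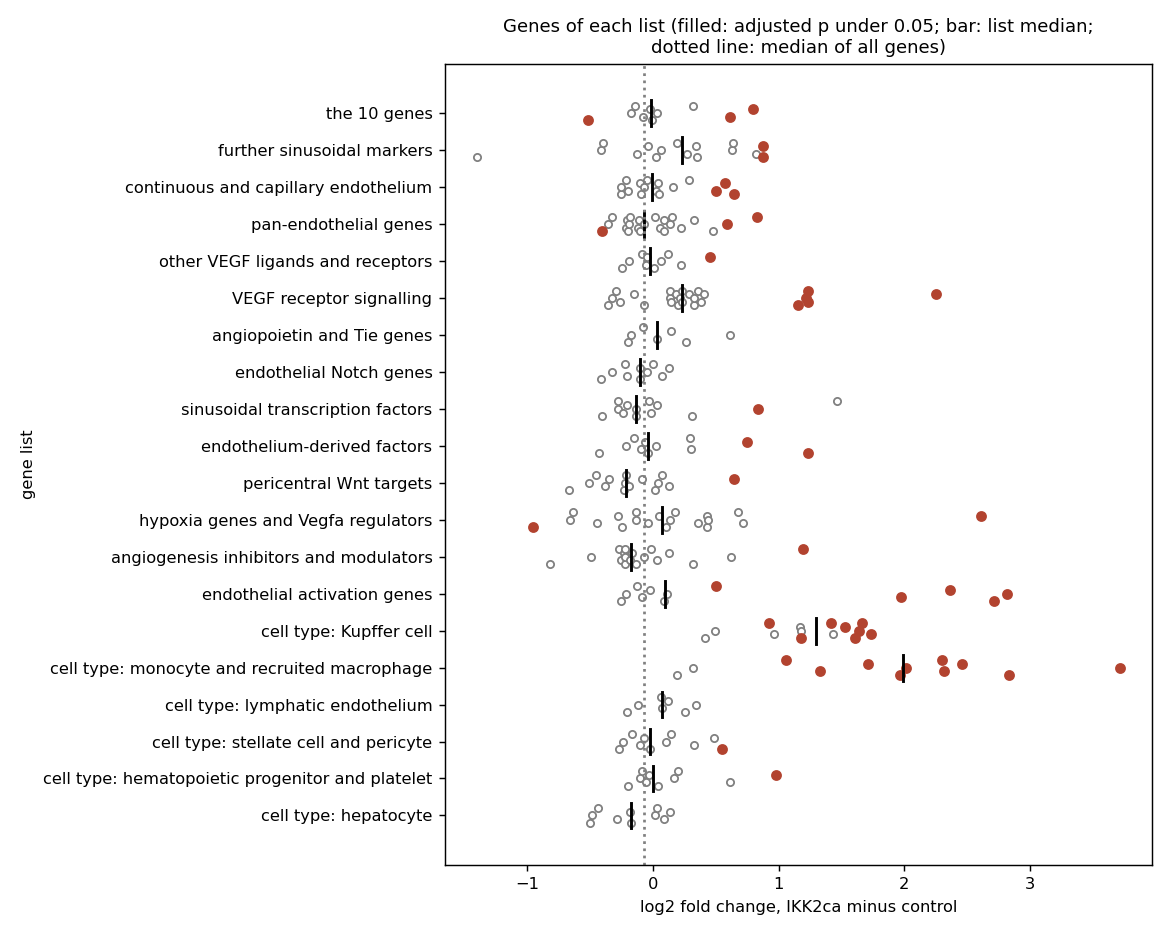
Each point is the log2 fold change, IKK2ca minus control, of 1 gene in the list named at the left; filled points passed at an adjusted p under 0.05, the bar is the list's median and the dotted line the median of all genes (-0.07). Medians are 1.30 for Kupffer cell and 1.99 for monocyte genes and lie between -0.22 and 0.23 for the other lists.

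The genes most like the 3 that passed were named by Pearson's r over the 8 arrays, a measure that includes the difference between the groups and describes likeness alone. For Stab1 they were the splicing regulator Mbnl1, the membrane scramblase Ano6 and the kinase Lrrk1, with likeness values of 0.995, 0.994 and 0.992. For Cd34 they were the tropomyosin Tpm1, the dendritic cell lectin Cd209a and the class II antigen chain H2-Ab1, at 0.985, 0.977 and 0.975. For Vegfa they were the magnesium channel Trpm6, the sugar kinase Fn3k and the haem synthesis enzyme Cpox, at 0.990, 0.985 and 0.985.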

How the data were processed

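Total RNA of 8 livers was measured on Affymetrix arrays, 1 per animal. Per the submitters' processing notes, the authors used Affymetrix Expression Console to make the deposited log2 values, 1 per probe set and array. The version, the settings and the normalization are not given in sources used here. The base of 2 was read from the values. Array medians lay within 0.5 of each other, so nothing was renormalized. Scanner files were not used here, so background is unknown. Precision is limited by the number of arrays.

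Of 35556 probe sets, 21789 had 1 symbol in the platform annotation, 1621 several and 12146 none. By Entrez identifier, 21698 were found in RefSeq's gene list for GRCm38.p6, with 0 symbols changed by it. Under R 4.3.3 and data.table, version 1.17.8, limma 3.58.1 fitted group as the only term to the 21789, with empirical Bayes moderation and two-sided tests. A gene was counted once, through its brightest probe set. Fold changes are IKK2ca minus control. Differences between 2 genes within an array were tested by exact permutation over the 8 arrays (70 assignments).

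Members, the 19 lists (280 entries, 260 measured) and tests were chosen with earlier results of these data known. Named were the 10 members, Ikbkb, the marker genes Pecam1, Cdh5 and Tie1, the genes of each list past the threshold (the 4 with the largest changes where more than 6 passed, the smallest p where none did) and the 3 genes most like Stab1, Cd34 and Vegfa. Esam, Lama4, Hspg2, Col18a1, Glul, Notum, Mgll, Cldn5, Sox18, Egr3, Dusp5, Nr4a1 and Bmp6 were added after their values were seen. On simulated data with the real means and spreads, limma recovered 47 of 50 genes changed by 1, 47 of 50 by -1, 49 of 50 by 2 and 48 of 50 by -2 (log2), with 14 false calls among 19938 genes. These changes are larger than those of Stab1, Cd34 and Vegfa, and recovery at smaller sizes was not tested.

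Alternatives were quantile normalization, centring on array medians, dropping the 30% or 50% of probe sets with the lowest mean, testing every deposited probe set, a mean over the probe sets of 1 gene, trend and robust moderation, weights for arrays, a block for the replicate number, treat against 1.2-fold and leaving out each array.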

Additional observations from a re-analysis of the deposited data

Results flagged for a closer look

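Clec4g in the controls was set apart by 1 liver. Control replicate 2 read 11.00 and the other 3 controls read 10.84 to 10.86, so its gap to the nearest was 0.845 of the range of that group, above Dixon's critical value for 4 samples. In IKK2ca livers the values were 10.73 to 10.96. Of 26 such checks, over 10 genes and 3 gene pairs in 2 groups, this was the only one past the value, and chance alone gives about 1 in 20. The same liver was the lowest control for 7 of the other 9 genes.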

How the results depend on the processing

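Over all genes, 932 were higher and 333 lower. The number higher was 618 with arrays centred on their medians, 425 with all deposited probe sets and 271 in the treat test. The number lower was 638 after quantile normalization, 97 after centring, 54 with all probe sets, 501 with array weights and 8 in the treat test. With 1 array left out, 192 to 1636 were higher and 3 to 944 lower. Of the 10 genes, 2 were higher and 1 lower; 0 were lower after centring or with all probe sets, and 0 were called in the treat test. With 1 array left out 1 or 2 were higher and 0 or 1 lower.

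Same-numbered livers correlated at 0.24, -0.03, 0.26 and -0.13 in their deviations from the group means. The control most like IKK2ca replicates 1 and 3 bore the same number, and that most like replicates 2 and 4 did not. Whether the numbers pair the livers cannot be told from these values. With the replicate block 670 genes were higher and 174 lower, and of the 10 genes 1 was higher and 0 lower; Stab1 had a limma adjusted p = 0.0552 and Vegfa 0.0569. For the gene pairs the block allows no exact p under 0.125.

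The change in Stab1 minus Stab2 was 0.36 to 0.57 with 1 array left out, that in Flt1 minus Kdr -0.29 to -0.14 and that in Cd34 minus Stab2 0.17 to 0.50. Without IKK2ca replicate 2, 2 pairs reached the smallest exact permutation p that 3 against 4 arrays allow, 0.0286, which adjustment over 3 pairs turns into 0.0429. This says nothing of the stability of either pair: Stab1 minus Stab2 changed by 0.36 there, less than with all 8 arrays. Members that were not called changed sign close to 0: Kdr was -0.0808 after quantile normalization and -0.13 to 0.16 with 1 array left out; Clec4g was 0.0577 after centring, 0.0444 with array weights and -0.0505 to 0.0234 with 1 array left out; Tek was 0.0714 after centring and -0.0757 to 0.0284 with 1 array left out. The causes were not tested. Of 40 called genes among the 10, Ikbkb and the genes named from the lists, 13 kept their calls in all 8 fits with 1 array left out. Of the same 40, 15 lost their calls with all deposited probe sets, 9 after centring, 4 after quantile normalization, 2 with array weights, 2 with trend and robust moderation, 26 in the treat test and 11 with the replicate block (Stab1, Vegfa, Clec1b, Lamb1, Sox7, Cd93, Plxnd1, Rac2, Nid1, Pdk1 and Jam2).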
